A study of Homo sapiens with 6 samples.

Results

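The comparison described is that of the si1 knockdown group with the NC control group of SK-MES-1 cells, a line derived from a human lung squamous cell carcinoma. RNA was sequenced from 6 libraries in 3 groups of 2: NC, si1 and si2. The series states a transient knockdown of KRT6A, a type II keratin of stratified epithelia, beside control cells. All 3 groups are the same cell line and carry no other stated agent or genotype. The labels do not spell out the names NC, si1 and si2, hold no sequence of a knockdown reagent and do not say whether replicates 1 and 2 were separate cultures. If they were not, the p-values measure only technical spread. Of the 58735 genes in the table, 12344 had a mean of at least 1 FPKM (fragments per kilobase of gene, scaled to the library's total) over the 2 NC and 2 si1 libraries, and these were tested. Differences are of log2(FPKM + 1) unless a sentence says FPKM. They understate the change of genes with low FPKM.

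KRT6A itself had 0 reads in all 6 libraries, so the stated knockdown could not be checked on its target. The upper limit that a count of 0 allows, 3 reads, was 0.0583 to 0.0627 FPKM in the NC and si1 libraries. Of 6 general epithelial markers, the keratins KRT7, KRT8, KRT18 and KRT19 and the adhesion protein EPCAM averaged over 1 FPKM in the NC and si1 libraries, while CDH1, E-cadherin, was at 0.102 FPKM. Of 10 squamous and basal markers, 4 averaged over 1 FPKM: LAMB3, S100A2 at 29.6, PKP1 at 18.7 and TP63 at 5.73. KRT5, KRT14 and DSG3 of stratified epithelium were at or near 0. The 10 squamous and basal markers summed to 260.4 and 271.1 FPKM in NC, 192.0 and 181.3 in si1 and 183.8 and 182.9 in si2, most of it LAMB3, a laminin chain, and 2 of the 10 had no read in any NC or si1 library. Leukocyte markers summed to at most 1.76 FPKM and endothelial markers to at most 0.569 FPKM in any library. The 6 fibroblast markers summed to 16.5 and 16.9 FPKM in NC, 23.6 and 19.3 in si1 and 22.7 and 22.1 in si2, nearly all of it COL1A1, a collagen chain, while COL3A1 had no read in NC or si1. The part of these marker levels in the results was not tested. In these bulk libraries, fewer cells of a kind and less RNA per cell cannot be told apart.

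As background, growth factors of the EGF family bind receptor tyrosine kinases, and the signal runs through RAS, RAF and the MAP kinases to AP-1 and ETS transcription factors. Those factors switch on secreted proteases, cytokines and D-type cyclins, and also the phosphatases and Sprouty proteins that damp the pathway. Small interfering RNAs silence a transcript they match over their length, and a short stretch near the 5′ end of the guide strand, the seed, can also pair with the 3′ UTRs of other transcripts.

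Against NC, 2769 of the 12344 genes (22.4%) passed an adjusted p under 0.05 in si1: 1174 were higher (9.51%) and 1595 lower (12.9%). Changes of more than 2-fold on the log2(FPKM + 1) scale were found for 71 of the higher and 142 of the lower genes, and the median of all tested genes was -0.01. Of the 112 gene lists examined, the share of members that fell was highest for the plasminogen system, YAP and TEAD targets, EGF receptors with their ligands and MAP kinase feedback inhibitors. The share that rose was highest for complement and for the clustered histone genes. Lists are described below where over 1.5 times the share of all genes was called in 1 direction, apart from a few given as counts. That held for 73 of the 112 lists, so an excess in them was set by the choice. Each list's counts are to be read beside the 9.51% higher and 12.9% lower of all genes. To tell which changes set si1 apart from the other knockdown group, si1 was also set against si2, where 4750 genes (38.5%) were called, 2332 higher (18.9%) and 2418 lower (19.6%). Of the 1595 genes lower in si1 than in NC, 1059 were also lower in si1 than in si2 (8.58% of all genes tested). Of the 1174 higher genes, 653 were also higher than in si2 (5.29%). The remaining si1 calls were 446 lower and 456 higher genes with no call against si2, and 90 lower and 65 higher genes that differed from si2 the other way.

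**Figure D1:**
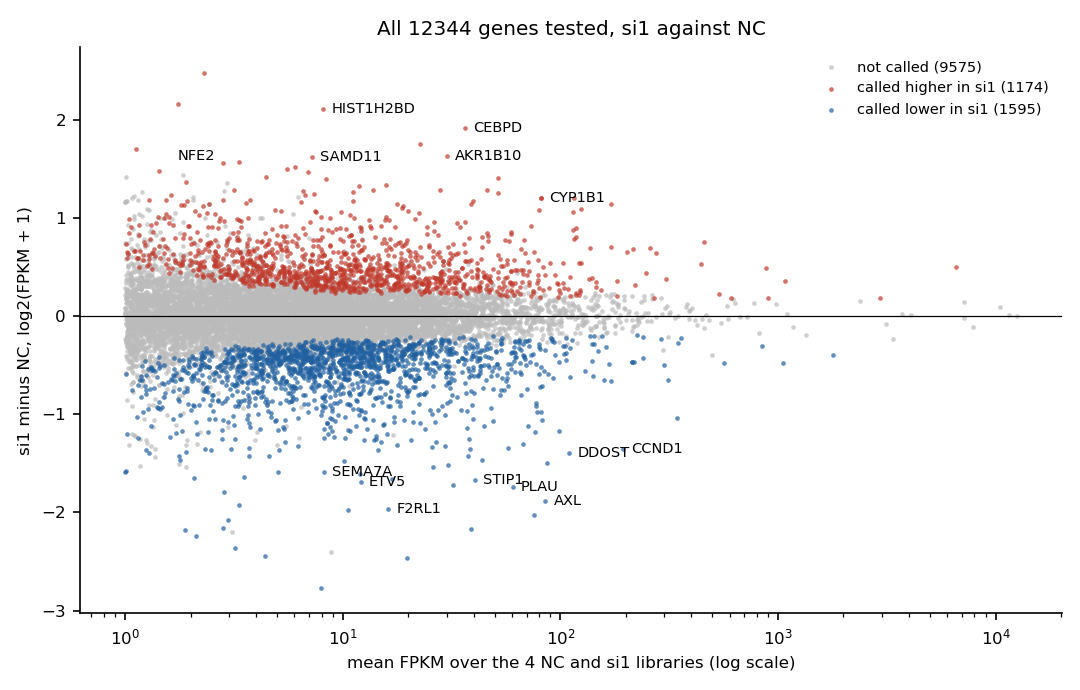
Each point is 1 of the 12344 genes tested, with its mean FPKM over the NC and si1 libraries on a log axis against the si1 minus NC difference in log2(FPKM + 1). Red points are the 1174 genes called higher and blue points the 1595 called lower, and the named genes lie at the edges of the cloud.

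The libraries held 14948607 to 17401392 reads. The 2 si1 libraries correlated at r = 0.984 across genes and the 2 NC libraries at r = 0.986, against 0.963 to 0.967 between NC and si1 libraries. Without NC replicate 1 the count of called genes fell to 1039, and without NC replicate 2 to 1134. The count between si1 and si2 fell to 2924 without si2 replicate 1.

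A stretch of 7 bases, ACTCTCT, was followed through the 3′ UTRs because an earlier analysis of these data had given it for genes lower in si1. It also stands in the stated target. The messenger RNA of KRT6A holds 1 copy, in its 3′ UTR, and there it is followed by A, so that it reads ACTCTCTA, while the transcripts of its relatives KRT6B, KRT6C and KRT5 hold none. The windows of 30 bases below are GENCODE release 29 transcript sequence (hg38), 5′ to 3′ on the transcript's strand, with the match in capitals. After KRT6A they show 6 genes with all 8 bases, chosen after their values were seen, and 1 gene with the 7 bases.
KRT6A, chr12:52487312-52487341, minus strand: ctggctctcaaACTCTCTAacttataagtg
SLC35F3, chr1:234324010-234324039, plus strand: aaacaaataaaACTCTCTAtatatgtgtat
SKP2, chr5:36182866-36182895, plus strand: ggtattaatccACTCTCTAttcttgaaaat
SGPL1, chr10:70877599-70877628, plus strand: tccttttctaaACTCTCTAgctttcaactt
KIF21B, chr1:200971246-200971275, minus strand: aagtgtcattgACTCTCTAaacttgaagtc
MAPKAPK2, chr1:206732746-206732775, plus strand: gacaagcaataACTCTCTAcaggaatatat
LRP8, chr1:53245761-53245790, minus strand: cttttccccttACTCTCTAccatttccttt
CALM3, chr19:46609201-46609230, plus strand: ctcgcgcgcgcACTCTCTcttcaacactcc

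Each of the 7 genes listed after KRT6A fell in si1. Those with ACTCTCTA were chosen after their values were seen, so their fall is no test of the match. The 7 bases themselves came from an earlier analysis of these libraries, so the fall of CALM3 is no test either. Of all 162 genes with ACTCTCTA in the 3′ UTR, 51 were called lower in si1 and 4 higher. SKP2, the substrate receptor of a ubiquitin ligase that degrades the cyclin-dependent kinase inhibitor p27, was at 15.1 and 14.5 FPKM in NC, 5.45 and 5.91 in si1 and 22.5 and 20.6 in si2. Its si1 minus NC difference was -1.24 (SE 0.0788, adjusted p = 0.000179). SGPL1, the enzyme that cleaves sphingosine phosphate, fell from 12.5 and 11.3 to 5.38 and 4.77 FPKM, with si2 at 10.8 and 10.1. KIF21B, a kinesin motor, stood at 3.12 and 3.36 FPKM in NC, 1.13 and 0.880 in si1 and 2.66 and 2.63 in si2 (difference -1.08, adjusted p = 0.00124). MAPKAPK2, a kinase activated by p38, had 36.2 and 36.4 FPKM in NC, 18.3 and 18.2 in si1 and 28.6 and 32.2 in si2 (difference -0.96, adjusted p = 0.000364). LRP8, a receptor of the LDL receptor family, had 13.8 and 15.002 FPKM in NC, 7.37 and 7.07 in si1 and 15.4 and 15.2 in si2 (difference -0.91, adjusted p = 0.00042). SLC35F3, a member of a solute carrier family, was low in si1 at 5.15 and 5.71 FPKM against 19.2 and 17.9 in NC, but was also low in si2 at 4.89 and 4.43. In SKP2, SGPL1, KIF21B, MAPKAPK2 and LRP8 the 2 si1 libraries lay below all 4 others. They were chosen for that separation from NC or after their values were seen, so it is no separate result. Of all 12344 genes tested, both si1 libraries lay below both NC libraries in 3982 and above them in 3720.

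Over all 10676 genes with an annotated 3′ UTR, 13.8% were called lower and 9.99% higher in si1. Of the 162 genes whose 3′ UTR held the 8 bases, 31.5% were called lower and 2.47% higher, with a median difference of -0.14. For the 857 genes with bases 1 to 7 of it, those shares were 24.6% and 5.60%. With bases 2 to 8 alone, 21.8% of 639 genes were lower. A match of 6 bases was found in 2414 genes, of which 16.9% were lower, and of the 6604 genes with no such match 10.1% were lower and 11.7% higher. The medians in si2 minus NC ran from -0.02 to 0.06 over these classes. Because the 7 bases were taken from an analysis of these same libraries, the shares in si1 are a description and no independent test. The 7 bases stood in the 3′ UTR of 262 of the 1478 genes called lower, or 17.7%, against 9.55% of all genes with a 3′ UTR. Carriers have longer 3′ UTRs, at a median of 3059 bases against 1011. Among 3′ UTRs over 2433 bases, 22.8% of carriers and 16.03% of the others were lower, and among those of up to 465 bases 39.5% of 38 carriers and 9.84% of the others. In the coding sequence of genes with no 3′ UTR match, 86 genes held the 8 bases and 26.7% of them were lower. The share did not rise steadily with the number of copies of the 7 bases in the 3′ UTR. It was 25.6% of 890 genes with 1 copy, 27.8% of 108 with 2 and 19.05% of 21 with 3 or more. With the 7 bases in the 5′ UTR, 19.4% of 108 genes were lower and 10.2% higher. These shares describe the transcripts, and whether the match had a part in any gene's change was not tested. Most of the genes that fell, 1216 of the 1478, held no copy of the 7 bases in their 3′ UTR.

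**Figure D2:**
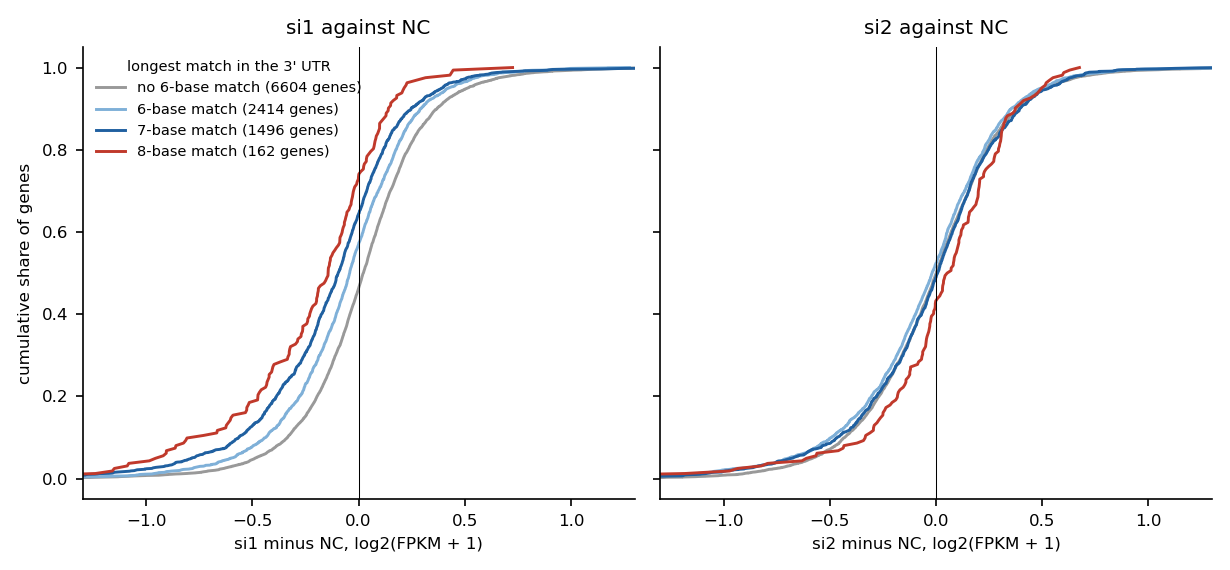
The 2 panels give the cumulative share of genes (y axis) with a difference from NC in log2(FPKM + 1) up to the value on the x axis, in si1 (left) and si2 (right), for genes grouped by the longest match in their 3′ UTR. In si1 the curves move left in the order of the match length from 6604 genes with none to 162 genes with 8 bases, and in si2 they lie close together.

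The plasminogen system and the coagulation receptors held the highest share of genes that fell. Of 16 tested members, 11 fell and 1 rose, and 10 of those that fell were also lower than in si2. The list's median was -0.70 in si1 and 0.30 in si2, against -0.01 for all genes in si1. With 1 library left out, the count that fell was 8 to 11. PLAU (ENSG00000122861, chr10:73909177-73917497), urokinase, the protease that activates plasminogen at the cell surface, was at 90.5 and 96.1 FPKM in NC, 27.1 and 27.4 in si1 and 96.95 and 94.9 in si2 (difference -1.74, SE 0.0578, adjusted p = 3.33e-05). The NC and si2 libraries of PLAU overlapped, and the si1 libraries lay below all of them. PLAUR, the urokinase receptor, fell from 12.2 and 11.98 to 5.37 and 5.42 FPKM while si2 stood at 16.7 and 16.6 (si1 minus NC -1.03, adjusted p = 0.000189). F2RL1 (ENSG00000164251, chr5:76818933-76835315), protease-activated receptor 2, had 27.3 and 25.4 FPKM in NC, 5.996 and 6.01 in si1 and 45.1 and 41.6 in si2, so the groups were fully apart with si1 lowest and si2 highest. The difference from NC was -1.96 (SE 0.0732, adjusted p = 4.9e-05). F2RL2, another receptor of that family, fell by 0.92, and THBD, the endothelial thrombin receptor thrombomodulin, by 0.75. PLAT, tissue plasminogen activator, had a difference of -0.73, F3, the tissue factor that starts coagulation, -0.68, and F2R, the first thrombin receptor, -0.53. In si2 minus NC those 3 genes were at 0.12, 0.35 and 0.49. Plasminogen system genes that rose numbered 0 without NC replicate 1, NC replicate 2 or si1 replicate 2 and 2 without si1 replicate 1. F2R lost its call with no filter on low values (adjusted p = 0.0565) and without NC replicate 1 (adjusted p = 0.091). F3 lost its call without NC replicate 1 (adjusted p = 0.0652).

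Of the 11 tested serpins, a family of protease inhibitors, 6 fell and 1 rose, and all 6 of those that fell were lower than in si2 too. Beside SERPINB2, they included SERPINB1 (25.8 and 23.7 FPKM in NC, 13.5 and 15.2 in si1), SERPINB8, SERPINA1 and SERPINB9, with differences of -0.75, -0.74, -0.48 and -0.45. The metalloproteinases and their inhibitors moved both ways: of 28 tested, 10 fell and 4 rose (with 1 library left out, the count that fell was 6 without NC replicate 1, and the count that rose was 2 without NC replicate 1, 1 without NC replicate 2, 2 without si2 replicate 1 and 2 without si2 replicate 2). Of the 10 that fell, 6 were also lower than in si2, and of the 4 that rose 3 were also higher. ADAMTS1, a secreted protease of matrix proteoglycans, fell from 12.4 and 12.6 to 5.89 and 6.801 FPKM. ADAM15, a membrane protease, rose from 15.6 and 16.1 to 39.7 and 40.1 FPKM, with si2 in between at 27.96 and 29.2. Serpins that rose numbered 0 without NC replicate 1, NC replicate 2, si1 replicate 2, si2 replicate 1 or si2 replicate 2. SERPINB9 lost its call without NC replicate 2 (adjusted p = 0.0814).

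**Figure D3:**
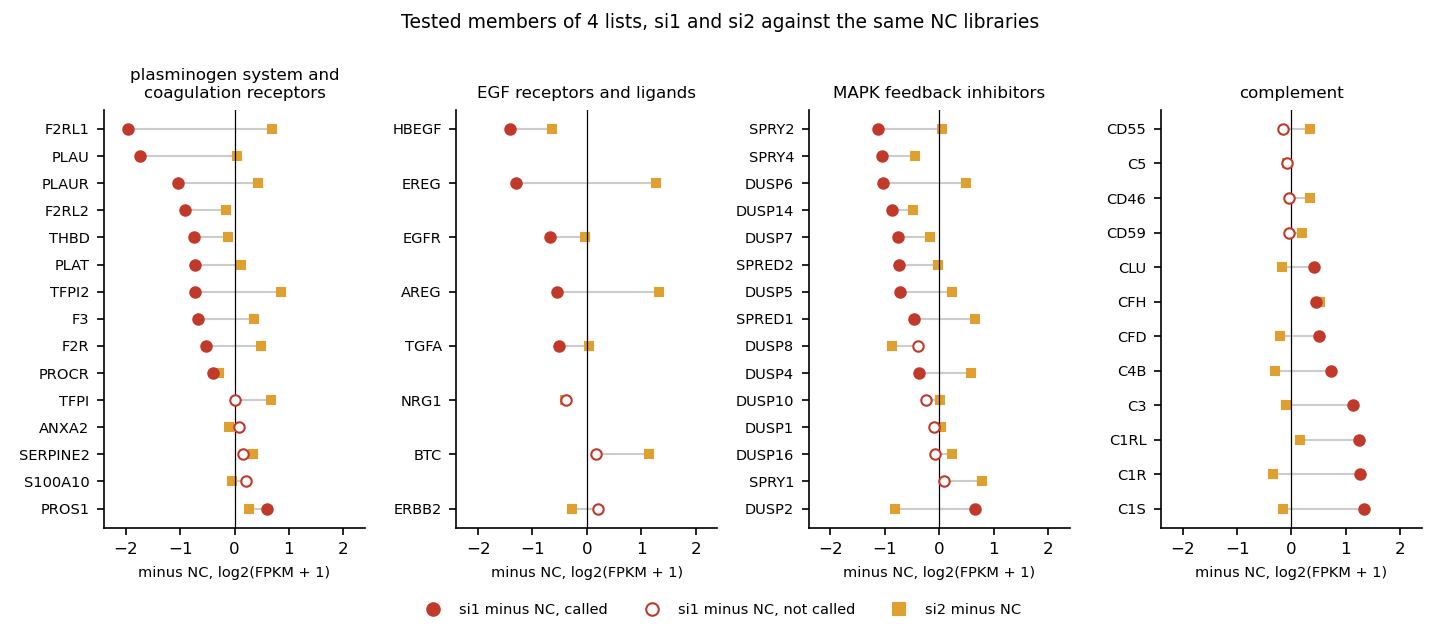
Each row is 1 tested gene of 4 lists, ordered by its si1 minus NC difference in log2(FPKM + 1) on the x axis (circle, filled where called), with the si2 minus NC difference of the gene as a square. Both differences share the NC libraries. The si1 circles lie left of 0 for F2RL1, PLAU and PLAUR of the plasminogen list and right of 0 for the 8 called genes of complement.

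Ligands and receptors of the EGF family fell in si1. Of 8 tested, 5 fell, 0 rose, and all 5 that fell were lower than in si2 (with 1 library left out, the count that fell was 3 without NC replicate 1). EREG (ENSG00000124882, chr4:74365143-74388751), epiregulin, was the most abundant ligand gene per length at 97.5 and 94.8 FPKM in NC, with 36.6 and 39.95 in si1 and 238 and 231 in si2. The si1 minus NC difference was -1.31 (SE 0.0619, adjusted p = 8.69e-05), and si1 minus si2 was -2.58 (adjusted p = 7.08e-06). HBEGF, a heparin-binding ligand, had 7.296 and 6.91 FPKM in NC, 1.88 and 2.17 in si1 and 3.99 and 4.47 in si2, with both knockdown groups below NC and si1 lowest. AREG, amphiregulin, was at 33.3 and 29.1 FPKM in NC, 19.7 and 22.3 in si1 and 81.01 and 78.4 in si2, a difference of -0.55 from NC (adjusted p = 0.00598) and of -1.87 from si2. EGFR, the receptor of these ligands, fell from 37.9 and 37.5 to 26.1 and 20.8 FPKM, with si2 at 37.4 and 36.2 (difference -0.67, adjusted p = 0.00462). TGFA, a further ligand, fell by 0.52. ERBB2, the partner receptor of EGFR, had a difference of 0.20 (adjusted p = 0.205). AREG lost its call without NC replicate 1 (adjusted p = 0.054). TGFA lost its call under 4 of the alternatives, with adjusted p from 0.068 to 0.126.

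Downstream of the receptor, 7 of 25 tested RAS and RAF pathway genes fell and 4 rose (with 1 library left out, the count that fell was 3 without NC replicate 1 and 4 without NC replicate 2, and the count that rose was 0 without NC replicate 1, 1 without NC replicate 2, 2 without si1 replicate 1 and 2 without si1 replicate 2). NRAS (ENSG00000213281, chr1:114704469-114716894), a RAS GTPase, had 56.7 and 54.3 FPKM in NC, 19.7 and 22.4 in si1 and 61.4 and 61.3 in si2. Its si1 libraries were below the other 4, with a difference of -1.36 from NC (SE 0.0745, adjusted p = 0.000131) and -1.50 from si2. GRB2, the adaptor between receptors and RAS, fell from 36.6 and 38.3 to 20.3 and 18.7 FPKM with si2 at 35.8 and 37.1, and its 3′ UTR holds the 7 bases. ARAF, a RAF kinase, fell by 0.75. HRAS, another RAS GTPase, was at 0.15 (adjusted p = 0.429). The list's median was 0.04 in si1 and 0.07 in si2, so the list as a whole did not move down. Against both NC and si2, 4 members were lower and 4 higher in si1. The largest rise was that of RRAS, at 0.42. RRAS lost its call with no filter on low values (adjusted p = 0.0639) and without NC replicate 1, where its difference was 0.35.

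Inhibitors that MAP kinase activity induces were also lower. Of 15 tested phosphatases, Sprouty and SPRED genes, 9 fell and 1 rose, with a median of -0.47 in si1 and 0.04 in si2. All 9 that fell were lower than in si2 too, and with 1 library left out the count was 6 to 9. SPRY2, a Sprouty inhibitor of receptor signalling, was at 15.5 and 16.8 FPKM in NC, 6.56 and 7.25 in si1 and 16.1 and 17.4 in si2 (difference -1.12, SE 0.0836, adjusted p = 0.000348). DUSP6, the cytoplasmic ERK phosphatase, had 6.69 and 6.54 FPKM in NC, 2.65 and 2.82 in si1 and 9.84 and 9.52 in si2 (difference -1.03, adjusted p = 0.000346). In DUSP6 the 3 groups did not overlap, with si1 lowest and si2 highest, while SPRY2 overlapped between NC and si2. SPRY4, DUSP14, DUSP7 and SPRED2 fell by 1.05, 0.86, 0.77 and 0.75. DUSP1, an early phosphatase of the same pathway, was at -0.10 (adjusted p = 0.446). DUSP7 lost its call with no filter on low values (adjusted p = 0.0585) and without NC replicate 1 (adjusted p = 0.076).

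Among the transcription factors that MAP kinases reach, 8 of 18 tested ETS factors fell and 1 rose (with 1 library left out, the count that fell was 4 without NC replicate 1, 4 without NC replicate 2 and 5 without si1 replicate 2). ETV5 (ENSG00000244405, chr3:186046308-186110318), an ETS factor of the PEA3 group, had 19.3 and 18.7 FPKM in NC, 4.66 and 5.78 in si1 and 15.8 and 16.1 in si2, a difference of -1.69 from NC (SE 0.0964, adjusted p = 0.000131). Its relatives ETV4 (5.59 and 5.94 FPKM in NC, 1.39 and 1.95 in si1, 9.37 and 8.03 in si2) and ETV1 fell by 1.35 and 0.85, so all 3 genes of that group were lower. ELF4 fell by 0.96, and ELF3, an epithelial ETS factor, rose by 1.15, with si2 (5.87 and 5.56 FPKM) and si1 (5.61 and 5.04) overlapping. Of 18 immediate early factors 6 fell and 4 rose (with 1 library left out, the count that fell was 4 to 7, and the count that rose was 2 without NC replicate 1 and 2 without NC replicate 2). FOSL1, an AP-1 subunit, measured 124.0 and 132 FPKM in NC, 46.5 and 42.7 in si1 and 81.6 and 88.3 in si2, with the 3 groups apart (difference -1.50, SE 0.0718, adjusted p = 8.69e-05). EGR1 fell by 0.87, JUN, the partner of FOSL1, by 0.79, and MAFF by 0.86, whereas KLF2 rose by 0.82 and KLF6 by 0.38. In the 300 bases of RefSeq promoter sequence (GRCh38.p14) around the start of each gene, which was at hand for 8860 of the 10778 coding genes, the AP-1 motif TGANTCA, read on both strands, was found in 6.27% of the genes that fell, in 3.40% of those that rose and in 4.37% of all. The other motifs searched in this way were the TEAD motif ACATTCC, in 2.23%, 2.04% and 2.05% of the same groups, the E2F motif TTTCCCGC, in 3.38%, 1.59% and 2.75%, and the SRF CArG box, in 0.577%, 0.227% and 0.350%. ETS factors that rose numbered 2 without si1 replicate 2.

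**Figure D4:**
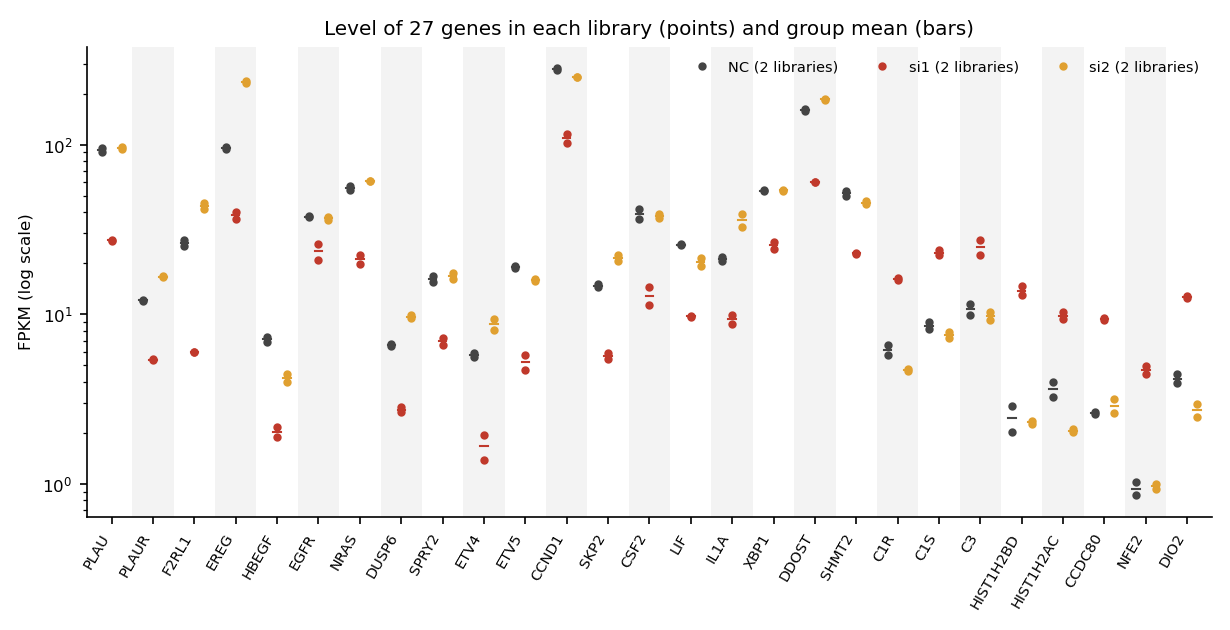
FPKM on a log axis of 27 genes in each of the 6 libraries (points) with the mean of each group (bars), NC in black, si1 in red and si2 in yellow. The si1 points lie below NC and si2 for the first 19 genes, from PLAU to SHMT2, and above them for the last 8, from C1R to DIO2.

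Targets of the YAP and TEAD factors, which act downstream of cell contact, fell in 14 of 21 tested members in si1 and rose in 3, but only 7 of those that fell were also lower than in si2 (with 1 library left out, the count that fell was 9 without NC replicate 1 and 9 without NC replicate 2). AXL, a receptor tyrosine kinase, had 134 and 135 FPKM in NC, 36.9 and 34.8 in si1 and 72.7 and 76.1 in si2, so both knockdown groups were below NC and si1 lowest (si1 minus NC -1.88, SE 0.0589, adjusted p = 3.2e-05). CTGF (ENSG00000118523, chr6:131948176-131951373), a secreted matrix protein, went opposite ways: 37.7 and 36.8 FPKM in NC, 13.2 and 15.1 in si1 and 106 and 102 in si2. Its si1 minus si2 difference, -2.80 (SE 0.0762, adjusted p = 8.8e-06), was the largest in size among the genes called lower than in both other groups. ANKRD1, a muscle ankyrin repeat protein, fell to 13.1 and 17.9 FPKM from 45.7 and 45.6, near the si2 values of 19.8 and 19.8. PTPN14, a phosphatase that binds YAP, fell by 1.17, and CCDC80, a secreted matrix protein, rose from 2.67 and 2.596 to 9.48 and 9.31 FPKM with si2 at 3.15 and 2.61.

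Some adhesion, guidance and cytoskeleton genes also changed. Over all genes tested, 12.9% fell and 9.51% rose. The share that rose was near or below the latter in the laminin (5.56%), actin (5.71%), Notch (10.5%) and semaphorin (11.1%) lists. Of 13 integrins, the matrix receptors, 4 fell and 2 rose, and of 18 laminins and basement membrane genes 5 fell and 1 rose. With 1 library left out, integrins that fell numbered 2 without NC replicate 1 and 2 without NC replicate 2, and basement membrane genes 10 without si1 replicate 1. ITGA2, a collagen receptor subunit, was at 108 and 104 FPKM in NC, 49.04 and 43.7 in si1 and 131 and 129.9 in si2 (difference -1.18, SE 0.0680, adjusted p = 0.000131). ITGA6, a laminin receptor subunit, fell by 0.63. Of 18 semaphorins and their receptors 5 fell and 2 rose (with 1 library left out, the count that fell was 2 without NC replicate 1, 2 without NC replicate 2 and 3 without si1 replicate 2). SEMA7A, a membrane-anchored semaphorin, was at 13.1 and 12.5 FPKM in NC, 3.64 and 3.53 in si1 and 10.01 and 10.6 in si2, and NRP1, a receptor of the class 3 semaphorins, at 29.6 and 28.4, 13.4 and 12.99 and 29.2 and 29.8. Their differences from NC were -1.59 and -1.08, with si1 below all other libraries. EPHA2, an ephrin receptor, fell by 1.12, and EFNA1, its ligand, rose by 0.99. The Eph list had 2 lower and 2 higher of 11, or 18.2% each way. Of 35 actin, myosin and tropomyosin genes 10 fell and 2 rose (with 1 library left out, the count that fell was 6 without NC replicate 1 and 6 without NC replicate 2). ACTN4, an actin crosslinker whose 3′ UTR holds the 7 bases, went from 134 and 139 to 66.9 and 53.6 FPKM, and TPM4, a tropomyosin, rose from 25.04 and 22.97 to 54.1 and 56.6 FPKM, below its si2 level of 77.03 and 77.1. In the Notch list 6 of 19 fell and 2 rose (with 1 library left out, the count that fell was 2 without NC replicate 1 and 3 without NC replicate 2): JAG1, a ligand, fell by 1.05 and HES1, a target gene of the pathway, by 0.83, and both were called lower than in si2. Integrins that rose numbered 0 without NC replicate 1 or NC replicate 2 and 1 without si1 replicate 1. Basement membrane genes that rose numbered 0 without NC replicate 1, NC replicate 2 or si1 replicate 1. Semaphorin genes that rose numbered 0 without NC replicate 1, NC replicate 2, si2 replicate 1 or si2 replicate 2, 1 without si1 replicate 1 and 4 without si1 replicate 2. Eph and ephrin genes that fell numbered 1 without NC replicate 1, NC replicate 2 or si1 replicate 2. Eph and ephrin genes that rose numbered 1 with any 1 library left out. Actin, myosin and tropomyosin genes that rose numbered 1 without NC replicate 1, NC replicate 2, si2 replicate 1 or si2 replicate 2. Notch genes that rose numbered 1 without NC replicate 1, NC replicate 2 or si1 replicate 2.

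Some interleukins and colony-stimulating factors fell in si1. Over all genes tested, 12.9% fell and 9.51% rose, and the chemokine list had 16.7% each way. Of 11 tested interleukins and colony-stimulating factors, 5 fell and 0 rose, all 5 being also lower than in si2. With 1 library left out, the count that fell was 5 each time. CSF2, the granulocyte-macrophage colony-stimulating factor, had 36.3 and 41.7 FPKM in NC, 11.3 and 14.4 in si1 and 39.1 and 36.7 in si2 (difference -1.54, SE 0.120, adjusted p = 0.000382). LIF, a cytokine of the interleukin 6 family, was at 25.5 and 25.9 FPKM in NC, 9.74 and 9.69 in si1 and 19.3 and 21.5 in si2 (difference -1.32, adjusted p = 0.000131). IL1A, interleukin 1 alpha, had 21.9 and 20.5 FPKM in NC, 8.73 and 9.903 in si1 and 39.2 and 32.7 in si2, so that si1 lay below NC and si2 above it. IL1B, its relative, fell by 1.17 and IL18 by 0.90. The chemokines did not move one way, with 2 lower and 2 higher of 12: CXCL8, a neutrophil attractant, fell from 102 and 103 to 55.9 and 68.96 FPKM, and CXCL1, another one, rose from 43.4 and 40.9 to 70.6 and 81.9, below its si2 level of 131 and 137. Of the 29 TNF ligands and receptors 7 fell and 5 rose. TNFRSF9, a costimulatory receptor, fell by 1.33. TNFSF10, the death ligand TRAIL, rose from 7.77 and 7.38 to 18.8 and 21.01 FPKM with si2 at 10.2 and 11.2, whereas TNFRSF10A, one of its receptors, fell from 14.6 and 13.3 to 7.897 and 7.21. TNFRSF1A, the main TNF receptor, rose by 0.77. In the BMP and activin list 5 fell and 3 rose of 21 (with 1 library left out, the count that fell was 2 without NC replicate 1 and 2 without NC replicate 2). GDF15, a stress cytokine, went from 101 and 116 to 56.5 and 52.3 FPKM, and INHBA, an activin subunit, from 4.303 and 3.69 to 1.85 and 1.64, while the 3 genes that rose were ID1, ID2 and ID3, inhibitors of helix-loop-helix factors, by 0.70, 0.74 and 0.81. Chemokines that fell numbered 1 without NC replicate 1, NC replicate 2 or si1 replicate 1. ID2 lost its call with no filter on low values (adjusted p = 0.0578), without NC replicate 1 (adjusted p = 0.0713) and without NC replicate 2 (adjusted p = 0.0529).

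Of 37 cyclins, cyclin-dependent kinases and their regulators, 13 fell and 2 rose, and 11 of those that fell were also lower than in si2 (with 1 library left out, the count that fell was 8 without NC replicate 1 and 8 without NC replicate 2). CCND1 (ENSG00000110092, chr11:69641087-69654474), cyclin D1, was at 275 and 282 FPKM in NC, 115 and 103 in si1 and 249.9 and 251 in si2. The si1 libraries were below all others, with a difference of -1.35 (SE 0.0646, adjusted p = 8.69e-05). E2F4, a repressor E2F, fell from 40.3 and 39.2 to 19.3 and 19.3 FPKM and E2F7, another one, from 23.7 and 23.97 to 11.6 and 9.89, while si2 stood at 40.6 and 43.4 and 24.5 and 22.4. Of the CDC25 phosphatases that activate these kinases, CDC25A fell by 0.63 and CDC25B rose from 57.5 and 59.7 to 94.8 and 90.7 FPKM, with si2 at 41.3 and 41.9. CDK4, the kinase that cyclin D1 activates, had a difference of -0.27 (adjusted p = 0.0459) and CCNE1, cyclin E1, of -0.03 (adjusted p = 0.933). Nuclear pore genes had 8 of 31 lower and 0 higher, but with 1 library left out the count was 1 without NC replicate 1, 3 without NC replicate 2, 5 without si2 replicate 1 and 5 without si2 replicate 2. NUP58 and NUP188 fell by 0.55 and 0.52. Cyclin and kinase genes that rose numbered 1 without NC replicate 1. CDK4 lost its call under 12 of the alternatives, with adjusted p from 0.0539 to 0.24. NUP188 lost its call without NC replicate 1 (adjusted p = 0.0569).

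Amino acid supply was another group with many falls. Of 21 tested amino acid transporters 11 fell and 3 rose, of 23 cytosolic tRNA synthetases 9 and 2. Of 17 genes of serine, glycine and folate metabolism 5 fell and 2 rose. Of those that fell, 6 transporters, 5 synthetases and 4 serine and folate genes were also lower than in si2. Over all genes that fell, that share was 66.4%. The transporters' median was -0.32 in si1 and -0.17 in si2, so their fall was not particular to si1. With 1 library left out, the synthetases that fell numbered 4 without NC replicate 1, and the serine and folate genes 3 without NC replicate 1, 3 without NC replicate 2 and 3 without si1 replicate 1. SLC7A1, the cationic amino acid transporter, had 28.1 and 28.4 FPKM in NC, 15.2 and 12.7 in si1 and 32.1 and 33.2 in si2 (difference -0.97, SE 0.0888, adjusted p = 0.000677). SLC7A5, the large neutral amino acid transporter, was at 99.9 and 102 FPKM in NC, 58.004 and 50.8 in si1 and 78.3 and 79.4 in si2. SHMT2 and MTHFD2, enzymes of the mitochondrial folate pathway, fell from 49.8 and 53.5 to 22.996 and 22.8 FPKM and from 64.6 and 61.6 to 31.2 and 33.9, with si2 at 44.7 and 46.3 and 64.1 and 65.1. In PSAT1, of serine synthesis, si1 fell to 41.8 and 47.1 FPKM from 69.5 and 68.8 and si2 stood above NC at 95.2 and 92.5. The synthetases with the largest falls were WARS, GARS, TARS and MARS, at -0.65, -0.61, -0.59 and -0.55. CHAC1, which degrades glutathione, had 18.1 and 17.8 FPKM in NC, 6.12 and 7.81 in si1 and 8.89 and 11.7 in si2. CEBPG, a factor that pairs with ATF4, the activator of such genes, fell from 22.8 and 23.7 to 14.6 and 12.8 FPKM, and SLC3A2 and SLC7A11, the subunits of the cystine transporter, fell by 0.48 and 0.47 while standing above NC in si2. ATF4 itself was at -0.46 (adjusted p = 0.00662). Of 18 amino acid synthesis enzymes 5 fell and 3 rose (with 1 library left out, the count that fell was 2 without NC replicate 1, 2 without NC replicate 2 and 3 without si1 replicate 2). Amino acid transporters that rose numbered 1 without NC replicate 1 or NC replicate 2. Synthetases that rose numbered 0 without NC replicate 1 or NC replicate 2 and 1 without si1 replicate 2, si2 replicate 1 or si2 replicate 2. Serine and folate genes that rose numbered 1 without NC replicate 1, NC replicate 2, si1 replicate 1 or si1 replicate 2. ATF4 lost its call without NC replicate 1 (adjusted p = 0.06).

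Some promoters of this group carry the composite site of C/EBP and ATF factors, TGATGCAA or its reverse complement TTGCATCA. The choice to show this site was not set in advance, and the SRF CArG box was rarer among all promoters. The composite site was found in 40 of the 8860 promoters of tested genes (0.451%), in 15 of the 1213 of genes that fell (1.24%) and in 5 of the 883 of genes that rose (0.566%). Among the genes that fell and were also lower than in si2, 7 of 826 (0.847%) held it. Shown are the 5 tRNA synthetase genes among the 15, with CHAC1, GOT1, HERPUD1 and PPP1R15B, chosen after the match was seen. The others were MYLK, NCOA7, NUP153, PRSS3, TBL1X and TRUB1. The windows are RefSeq promoter sequence (GRCh38.p14), 5′ to 3′ on the gene's strand, with the match in capitals.
AARS, chr16:70289675-70289704, minus strand: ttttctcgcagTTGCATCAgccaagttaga
CARS, chr11:3057407-3057436, minus strand: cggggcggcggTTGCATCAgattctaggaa
CHAC1, chr15:40953251-40953280, plus strand: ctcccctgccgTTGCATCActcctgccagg
GOT1, chr10:99430804-99430833, minus strand: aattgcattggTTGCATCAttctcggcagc
HERPUD1, chr16:56931955-56931984, plus strand: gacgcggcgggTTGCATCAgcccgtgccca
IARS, chr9:92293692-92293721, minus strand: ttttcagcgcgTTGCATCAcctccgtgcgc
MARS, chr12:57488053-57488082, plus strand: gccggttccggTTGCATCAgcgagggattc
PPP1R15B, chr1:204412026-204412055, minus strand: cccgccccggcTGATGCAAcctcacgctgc
TARS, chr5:33440956-33440985, plus strand: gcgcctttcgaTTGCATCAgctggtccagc

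A match is a description of these letters, and no binding was measured. TARS, threonyl-tRNA synthetase, had 108 and 104 FPKM in NC, 65.7 and 74.6 in si1 and 105 and 102 in si2. MARS, methionyl-tRNA synthetase, was at 49.5 and 52.8 FPKM in NC and low in both si1 (35.9 and 33.4) and si2 (32.3 and 31.6), and si1 and si2 were not called apart. GOT1, the cytosolic aspartate transaminase, fell from 16.7 and 16.2 to 9.79 and 10.7 FPKM, with si2 at 15.4 and 15.3. HERPUD1, an endoplasmic reticulum degradation factor, had a difference of -0.31 (adjusted p = 0.0199), AARS of -0.21 (adjusted p = 0.04), IARS, isoleucyl-tRNA synthetase, of -0.37 (adjusted p = 0.00503) and CARS of -0.32 (adjusted p = 0.0236). AARS lost its call under 11 of the alternatives, with adjusted p from 0.0504 to 0.201. CARS lost its call under 5 of the alternatives, with adjusted p from 0.0581 to 0.159. HERPUD1 lost its call without NC replicate 1 (adjusted p = 0.131) and without NC replicate 2 (adjusted p = 0.0906). IARS lost its call without NC replicate 1 (adjusted p = 0.057).

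Lists of the endoplasmic reticulum, where secreted proteins are folded and glycosylated, had more falls than rises. Of 21 chaperones and disulfide isomerases 9 fell and 1 rose. Among 21 genes of degradation 10 fell and 1 rose, and in the translocon and signal peptide list 8 of 25 fell and 0 rose. Of 27 genes of N-glycan transfer and trimming 7 fell and 2 rose. Of those that fell, 4 chaperones, 7 degradation genes, 6 translocon genes and 6 glycan genes were also lower than in si2. With 1 library left out, chaperones that fell numbered 5 without NC replicate 2, degradation genes 4 without NC replicate 1 and 3 without NC replicate 2, translocon genes 1 without NC replicate 1, 1 without NC replicate 2, 4 without si1 replicate 1, 5 without si2 replicate 1 and 5 without si2 replicate 2, and glycan genes 3 without NC replicate 1, 3 without NC replicate 2, 3 without si2 replicate 1 and 3 without si2 replicate 2. DDOST (ENSG00000244038, chr1:20651767-20661544), a subunit of the oligosaccharyltransferase, had the largest fall, with 158 and 162 FPKM in NC, 60.4 and 59.9 in si1 and 185 and 185 in si2. Its difference was -1.39 from NC (SE 0.0493, adjusted p = 4.1e-05) and -1.60 from si2. DPAGT1, the enzyme of the first step of the glycan precursor, whose 3′ UTR holds the 7 bases, fell from 8.296 and 7.29 to 2.91 and 3.01 FPKM with si2 at 8.06 and 9.01. RPN2, another subunit of the transferase, fell by 0.49, whereas GANAB, the glucosidase II catalytic subunit, rose from 49.7 and 51.5 to 113 and 104 FPKM and was higher still in si2 at 126 and 129.8. XBP1, the transcription factor of the unfolded protein response, was at 53.2 and 53.9 FPKM in NC, 24.3 and 26.6 in si1 and 53.4 and 54.04 in si2 (difference -1.05, SE 0.0645, adjusted p = 0.000168). Its NC and si2 libraries overlapped and si1 lay apart. HSPA5, the main chaperone of the compartment, fell from 278 and 271 to 196 and 211 FPKM. FAF2, a degradation factor, fell by 0.80, EDEM1, a mannosidase-like protein, by 0.49, and SEC61A1, the channel of the translocon, by 0.52. In the C/EBP and ATF list 6 of 23 fell and 3 rose, with CREB5 (-1.16) and CREB3L2 (-0.71), both with the 7 bases in their 3′ UTR, among those that fell. Chaperones that rose numbered 0 without NC replicate 1 or NC replicate 2 and 2 without si1 replicate 2. Degradation genes that rose numbered 0 without NC replicate 1, NC replicate 2, si1 replicate 1 or si1 replicate 2. Translocon genes that rose numbered 1 without si1 replicate 1. Glycan genes that rose numbered 1 without NC replicate 1.

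Cytosolic chaperones split. Of 32 tested, 8 rose and 6 fell (with 1 library left out, the count that rose was 5 without NC replicate 1, 5 without NC replicate 2 and 13 without si1 replicate 1, and the count that fell was 1 without NC replicate 1 and 2 without NC replicate 2). STIP1 (ENSG00000168439, chr11:64185272-64204543), the cochaperone that joins HSP70 to HSP90, had 60.7 and 63.9 FPKM in NC, 19.9 and 17.8 in si1 and 62.2 and 61.3 in si2. It fell by 1.67 (SE 0.0718, adjusted p = 8.69e-05), with NC and si2 overlapping. HSP90AA1, the inducible HSP90, rose from 342 and 336 to 533 and 611 FPKM with si2 at 399.7 and 389, and HSPA1A, the inducible HSP70, from 32.03 and 34.9 to 60.03 and 59.1 with si2 at 32.3 and 30.6. HSPB1, a small heat shock protein, rose by 0.70. HSPA1A and its near-identical copy HSPA1B, at 0.66, may share reads. CCT7, a subunit of the TRiC chaperonin with the 7 bases in its 3′ UTR, fell from 110.4 and 112 to 52.8 and 53.2 FPKM, while CCT5, a subunit of the same complex, rose by 0.31. In the TRiC and prefoldin list 3 of 14 fell and 1 rose. Mitochondrial chaperones and proteases rose in 7 of 19 and fell in 1, but with 1 library left out the number was 0 without NC replicate 1, 2 without NC replicate 2, 4 without si2 replicate 1 and 4 without si2 replicate 2, and only 1 of them was also higher than in si2. TRiC and prefoldin genes that fell numbered 1 without NC replicate 1 or NC replicate 2. TRiC and prefoldin genes that rose numbered 0 without NC replicate 1 or NC replicate 2 and 3 without si1 replicate 1. Mitochondrial chaperones and proteases that fell numbered 0 without NC replicate 2. CCT5 lost its call without NC replicate 1 (adjusted p = 0.0708) and without NC replicate 2 (adjusted p = 0.0642).

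Calmodulin genes differed among themselves. CALM2 and CALM3 encode the same protein, the main calcium sensor. CALM3 was at 62.3 and 66.1 FPKM in NC, 15.4 and 11.8 in si1 and 50.7 and 50.6 in si2, and CALM2 at 132 and 129.7, 96.9 and 120.0 and 159 and 160.3. The CALM2 difference of -0.28 from NC did not pass (adjusted p = 0.0803). In FPKM, CALM2 was more abundant than CALM3 per length in every library. Of the 16 calmodulin, calmodulin-dependent kinase and calcineurin genes tested 5 fell and 0 rose (with 1 library left out, the count that fell was 2 without NC replicate 1 and 3 without NC replicate 2). PPP3R1, the calcineurin regulatory subunit, fell by 0.66.

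Of 23 sphingolipid genes 9 fell and 3 rose (with 1 library left out, the count that fell was 2 without NC replicate 1 and 4 without NC replicate 2). Of the 9 that fell, 5 were also lower than in si2. Besides SGPL1, SPHK1, the kinase that makes sphingosine phosphate, fell from 10.6 and 10.8 to 5.75 and 4.803 FPKM. The genes for making and for cleaving that lipid were thus both lower. Of 32 potassium, sodium and chloride channel genes 10 fell and 1 rose (with 1 library left out, the count that fell was 5 without NC replicate 1 and 4 without NC replicate 2). ANO1, a calcium-activated chloride channel with the 7 bases in its 3′ UTR, went from 15.3 and 14.6 to 7.63 and 6.97 FPKM, and CLCN3, a chloride exchanger, from 15.5 and 15.4 to 8.403 and 8.53. CLIC3, an intracellular chloride channel protein, rose from 1.37 and 1.4996 to 4.73 and 5.12 FPKM and was at 0.430 and 0.731 in si2. Sphingolipid genes that rose numbered 1 without NC replicate 1 or NC replicate 2.

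Complement genes rose in si1, the largest share in that direction among the lists. Of 12 tested, 8 rose and 0 fell, with a median of 0.48 in si1 and -0.09 in si2. Of the 8, 7 were also higher than in si2, and with 1 library left out the count that rose was 6 to 8. C1S and C1R (ENSG00000159403, chr12:7080199-7092607), the proteases that start the classical pathway, are neighbours on chromosome 12. C1S was at 8.13 and 8.94 FPKM in NC, 22.3 and 23.8 in si1 and 7.26 and 7.81 in si2 (difference 1.34, SE 0.0807, adjusted p = 0.000153), and C1R at 5.73 and 6.61, 16.4 and 16.02 and 4.78 and 4.597. C3, the central component, had 9.901 and 11.4 FPKM in NC, 27.2 and 22.3 in si1 and 10.3 and 9.29 in si2 (difference 1.14, SE 0.116, adjusted p = 0.001). In all 3 genes the si1 libraries were above the other 4. C1RL, a relative of C1R, rose by 1.24, and CFD, the factor D protease, by 0.51. The membrane inhibitors CD46, CD55 and CD59 had differences of -0.05, -0.15 and -0.05, none of them called. C4B, at 0.73, has a near-identical copy with which it may share reads. Complement genes that fell numbered 1 without si1 replicate 2. C4B lost its call under 6 of the alternatives, with adjusted p from 0.0538 to 0.133. CFD lost its call without NC replicate 2 (adjusted p = 0.0561).

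Histone genes of the clusters rose in 8 of 14 tested and fell in 0, with a median of 0.66 in si1 and -0.28 in si2, and 8 were also higher than in si2 (with 1 library left out, the count that rose was 4 without NC replicate 1, 5 without NC replicate 2, 5 without si1 replicate 1 and 3 without si1 replicate 2). HIST1H2AC, an H2A gene, had 3.98 and 3.24 FPKM in NC, 9.39 and 10.3 in si1 and 2.01 and 2.102 in si2, with the 3 groups apart and si2 lowest (si1 minus NC 1.23, SE 0.105, adjusted p = 0.000504). HIST1H2BD, an H2B gene beside it, was at 2.89 and 2.03 FPKM in NC, 12.99 and 14.6 in si1 and 2.25 and 2.35 in si2. HIST2H2BE, another H2B gene, rose from 1.23 and 1.14 to 2.65 and 2.91 FPKM, and HIST1H1C, a linker histone, from 11.4 and 14.2 to 19.2 and 24.4. These genes have close copies in the clusters with which they may share reads. Of the 12 variant and replication-independent histones 5 rose and 2 fell. H2AFJ rose by 0.96, and H2AFZ, a variant linked to active genes, fell by 0.38. Variant histone genes that rose numbered 3 without si1 replicate 2. Variant histone genes that fell numbered 0 without NC replicate 1 or NC replicate 2 and 1 without si1 replicate 2, si2 replicate 1 or si2 replicate 2. H2AFZ lost its call with no filter on low values (adjusted p = 0.0677), without NC replicate 1 (adjusted p = 0.0622) and without NC replicate 2 (adjusted p = 0.0985). HIST1H1C lost its call with no filter on low values (adjusted p = 0.0771), without NC replicate 1 (adjusted p = 0.0919) and without si1 replicate 2 (adjusted p = 0.0617). HIST2H2BE lost its call without NC replicate 2 (adjusted p = 0.0526).

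Aldo-keto reductases, aldehyde dehydrogenases and cytochromes P450 rose in 11 of 36 and fell in 4, and 9 were also higher than in si2. AKR1B10, an aldose reductase relative, was at 14.5 and 13.7 FPKM in NC, 43.8 and 47.97 in si1 and 36.4 and 34.6 in si2 (difference 1.63, SE 0.0731, adjusted p = 8.69e-05), with both knockdown groups above NC and si1 highest. AKR1C1, AKR1C2 and AKR1C3, hydroxysteroid dehydrogenases with similar sequences that may share reads, rose by 1.14, 1.20 and 1.09. CYP1B1, a cytochrome P450, rose from 49.6 and 48.5 to 109 and 119 FPKM, below its si2 level of 136 and 135, and ALDH1A3, a retinal dehydrogenase, fell from 30.2 and 32.5 to 13.5 and 14.8. Genes of the pentose phosphate pathway, a source of NADPH, rose in 2 of 7, among them TKT, a transketolase, by 0.78 from 84.4 and 84.8 to 150.4 and 142 FPKM with si2 at 91.4 and 94.5. Among 23 iron and haem genes 5 rose and 3 fell (with 1 library left out, the count that rose was 2 without NC replicate 1, 3 without NC replicate 2, 3 without si1 replicate 2, 3 without si2 replicate 1 and 3 without si2 replicate 2). The ferritin chains FTL and FTH1 rose by 0.50 and 0.49, FTL from 5501 and 5439.5 to 7438 and 8030.2 FPKM. In the ferroptosis and glutathione list 5 rose and 4 fell of 27 (with 1 library left out, the count that rose was 2 without NC replicate 1 and 3 without NC replicate 2): GCLC, the rate-limiting enzyme of glutathione synthesis, rose from 31.8 and 30.8 to 52.6 and 58.8 FPKM. The antioxidant response core TGACNNNGC, read on both strands of the 300-base promoters, stood in 13.7% of the genes that rose and 15.1% of all. Iron and haem genes that fell numbered 0 without NC replicate 1 and 1 without NC replicate 2 or si1 replicate 2. FTH1 lost its call with no filter on low values (adjusted p = 0.0659). FTL lost its call with no filter on low values (adjusted p = 0.476).

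Many zinc finger genes rose, mostly by small steps. Over all genes tested, 9.51% rose and 12.9% fell, against 17.4% and 2.13% of the ZNF genes. The SR protein and hnRNP list had 14.3% higher. Of the 328 tested genes named ZNF, 57 rose and 7 fell, with a median of 0.17 in si1 and 0.16 in si2, and 9 of those that rose were higher than in si2. With 1 library left out, the number that rose was 22 without NC replicate 1, 19 without NC replicate 2 and 32 without si1 replicate 2. ZNF664 had 11.2 and 10.2 FPKM in NC, 21.995 and 22.1 in si1 and 22.6 and 22.1 in si2, and ZNF721 1.93 and 1.78, 4.499 and 4.84 and 4.19 and 3.89, so that both knockdown groups lay above NC, and in neither gene was si1 called apart from si2. ZNF467 differed, at 0.700 and 0.750 FPKM in NC, 2.48 and 2.44 in si1 and 0.185 and 0.363 in si2. Chromosome 19, which holds many such genes, had 15.1% of 768 tested genes higher and 6.64% lower. Without the C2H2 zinc finger genes the shares there were 13.8% and 8.16% of 625. The chromosome's median was 0.11 in si1 and -0.06 in si2. Nuclear receptors rose in 5 of 23 and fell in 0 (with 1 library left out, the count that rose was 3 without NC replicate 1, 2 without NC replicate 2 and 3 without si1 replicate 1). NR0B1, an orphan receptor that represses others, rose from 19.6 and 17.9 to 30.7 and 31.6 FPKM with si2 at 19.5 and 19.6, and NR2F6 by 0.56. SR proteins and hnRNPs, which guide splicing, rose in 5 of 35 and fell in 0 (with 1 library left out, the count that rose was 1 without NC replicate 1, 1 without NC replicate 2, 3 without si1 replicate 2, 3 without si2 replicate 1 and 3 without si2 replicate 2), with HNRNPM at 0.50. Of 29 SOX, FOX and GATA factors 8 fell and 3 rose (with 1 library left out, the count that fell was 3 without NC replicate 1, 2 without NC replicate 2, 4 without si1 replicate 2, 5 without si2 replicate 1 and 5 without si2 replicate 2). SOX4 rose from 10.9 and 12.1 to 25.7 and 25.96 FPKM and SOX12 by 0.82, while SOX9 fell from 41.4 and 44.96 to 24.3 and 23.5, and all 3 differed from si2 the same way. The BCL2 family had 4 higher and 4 lower of 19 (with 1 library left out, the count that rose was 1 without NC replicate 1, 1 without NC replicate 2, 1 without si1 replicate 1 and 2 without si1 replicate 2): BMF, which promotes apoptosis, rose from 7.99 and 9.27 to 18.8 and 17.03 FPKM, and BCL2L1, which opposes it, fell from 18.4 and 20.1 to 12.7 and 11.02. ZNF genes that fell numbered 1 without NC replicate 1 and 3 without NC replicate 2 or si1 replicate 2. Nuclear receptors that fell numbered 1 without si1 replicate 1. BCL2 family genes that fell numbered 2 without NC replicate 2.

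**Figure D5:**
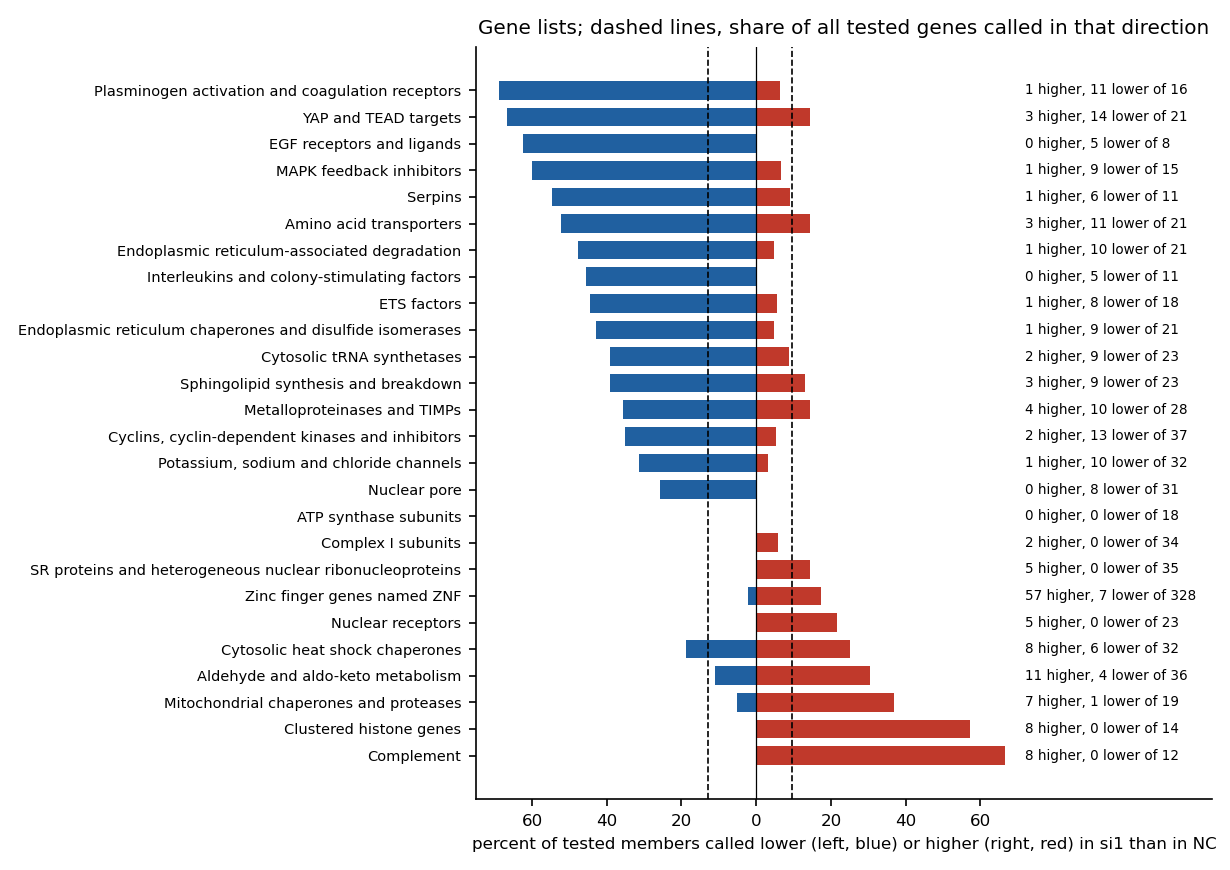
Percent of the tested members of 26 lists called lower (blue, left) or higher (red, right) in si1 than in NC, with the counts at the right and dashed lines at the shares over all 12344 genes, 12.9% and 9.51%. The plasminogen, YAP and TEAD, EGF and MAPK feedback lists reach farthest left, and complement and clustered histones farthest right.

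Further genes stood among the largest changes. MYEOV, a gene amplified with cyclin D1 in some tumours, fell from 17.2 and 17.8 to 4.12 and 3.33 FPKM, with si2 in between at 7.76 and 8.92 (difference -1.98, SE 0.106, adjusted p = 0.00013). SELENON, a selenoprotein of the endoplasmic reticulum with the 7 bases in its 3′ UTR, had 47.8 and 51.4 FPKM in NC, 15.8 and 12.9 in si1 and 32.3 and 35.5 in si2. NCEH1, a cholesteryl ester hydrolase, fell to 7.82 and 7.37 FPKM from 27.4 and 24.9, and MAMLD1 to 2.42 and 1.62 from 8.84 and 7.23. CPA4, a carboxypeptidase, was low in both knockdown groups, at 0.958 and 0.418 FPKM in si1 and 1.41 and 1.09 in si2 against 8.03 and 8.16 in NC. Among genes that rose, NFE2, a transcription factor of blood cells, was near 1 FPKM in NC (1.02 and 0.853) and si2 (1.000 and 0.938) and at 4.98 and 4.45 in si1. DIO2, the deiodinase that activates thyroid hormone, had 4.43 and 3.92 FPKM in NC, 12.4 and 12.8 in si1 and 2.49 and 2.97 in si2. SAMD11 rose from 2.54 and 3.57 to 11.4 and 11.3 FPKM, and IFITM2, an antiviral membrane protein, from 5.93 and 6.75 to 15.02 and 20.03, with si2 at 2.11 and 2.75 and 6.11 and 4.84. OGFR, the opioid growth factor receptor, and HABP4 rose by 1.46 and 1.42 and were high in si2 too, at 1.25 and 1.05 over NC. MKNK2, a kinase of the MAP kinase pathway, rose by 1.29. CEBPD, a C/EBP factor, was at 57.4 and 58.8 FPKM in si1, 28.1 and 31.5 in si2 and 13.9 and 15.6 in NC.

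Set against si2, the protein-coding genes lower in si1 than in both other groups were led by CTGF, F2RL1, EREG and IGFBP1. IGFBP1, a binding protein of insulin-like growth factors, had 5.83 and 5.92 FPKM in NC, 1.55 and 1.57 in si1 and 12.7 and 14.6 in si2, a si1 minus si2 difference of -2.51 (SE 0.0907, adjusted p = 1.62e-05). PTX3, a soluble pattern recognition protein, was at 14.8 and 15.8 FPKM in NC, 4.86 and 4.84 in si1 and 27.1 and 25.7 in si2 (si1 minus si2 -2.23). TMEM244 had 2.501 and 3.57 FPKM in NC, 0.639 and 0.353 in si1 and 4.35 and 4.34 in si2. In IGFBP1 and PTX3 the 3 groups did not overlap. The protein-coding genes higher in si1 than in both other groups were led by ZBED6CL, HIST1H2BD, SMIM14, CLIC3, DIO2 and SAMD11. EEF1A2, a translation elongation factor, had 47.99 and 51.5 FPKM in NC, 90.2 and 81.6 in si1 and 26.8 and 27.7 in si2 (si1 minus NC 0.77, si1 minus si2 1.62). RAP1GAP, which switches off the GTPase RAP1, rose from 5.95 and 6.97 to 16.8 and 14.7 FPKM, with si2 at 4.43 and 4.64. PLPPR3, SMIM14 and TIMP2, an inhibitor of metalloproteinases, rose less, by 0.85, 0.40 and 0.21, and si2 lay well below NC in each of them, at 43.3 and 42.5 FPKM for TIMP2 against 112 and 114 in NC. Both knockdown groups are compared with the same NC libraries, so the si1 and si2 values are set side by side and not counted as separate evidence. PLPPR3 lost its call with no filter on low values (adjusted p = 0.0903), without NC replicate 1 (adjusted p = 0.0995) and without si1 replicate 1 (adjusted p = 0.0747). SMIM14 lost its call under 4 of the alternatives, with adjusted p from 0.0609 to 0.127. TIMP2 lost its call under 7 of the alternatives, with adjusted p from 0.0584 to 0.155.

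Over all tested genes, 9.51% rose and 12.9% fell. A further 25 lists were picked, like those described above, for a share called in 1 direction above 1.5 times that of all genes. In all of these lists an excess was set by the choice. The further 25 lists held 568 tested genes, of which 68 rose and 102 fell. Without NC replicate 1 those counts were 23 and 37, and without NC replicate 2 they were 26 and 41. Genes of the TGF-beta list fell in 4 of 21 and rose in 3: TGFBR2, its type 2 receptor, went from 60.5 and 62.4 to 35.6 and 37.1 FPKM, with si2 above NC at 91.6 and 89.9, and SMAD3, a signal carrier, from 69.4 and 68.6 to 42.8 and 38.5. In the WNT list 6 of 28 fell and 2 rose, and DKK3, a Dickkopf family member, fell by 0.60. RNA polymerase II and III subunits fell in 5 of 22, with POLR3G, a polymerase III subunit, at 5.15 and 4.58 FPKM in NC and 1.16 and 1.43 in si1. EIF4EBP1, which blocks the cap-binding factor eIF4E, fell from 63.2 and 60.1 to 28.2 and 27.5 FPKM among 41 initiation factor genes, 4 of them lower and 6 higher. MT2A, a metallothionein, fell by 0.65, CD82, a tetraspanin, by 1.26, and CLDN1, a tight junction claudin, by 0.79. ARNTL2, a partner of CLOCK, and CLOCK fell by 0.84 and 0.75, SRM, spermidine synthase, by 0.76, and S100A16, with the 7 bases in its 3′ UTR, by 0.81. STAT3, a transcription factor of cytokine signalling, rose from 22.1 and 24.1 to 40.4 and 35.9 FPKM with si2 at 23.7 and 21.1. RHOB and RAC1, small GTPases that act on the cytoskeleton, rose by 0.91 and 0.65, MUC1, a membrane mucin, by 1.13, TUBA1A, an alpha tubulin, by 0.85, and ECI1, of fatty acid oxidation, by 0.70. TGF-beta genes that rose numbered 1 without NC replicate 1 or si1 replicate 1 and 0 without NC replicate 2. WNT genes that fell numbered 2 without NC replicate 1 and 3 without NC replicate 2. WNT genes that rose numbered 1 with any 1 library left out. Polymerase subunit genes that fell numbered 3 without NC replicate 1 or si1 replicate 2 and 2 without NC replicate 2. Initiation factor genes that fell numbered 1 without NC replicate 1 or NC replicate 2 and 7 without si1 replicate 2. Initiation factor genes that rose numbered 0 without NC replicate 1 or NC replicate 2, 3 without si1 replicate 1, 1 without si1 replicate 2 and 2 without si2 replicate 1 or si2 replicate 2.

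No gene was called by limma among 18 ATP synthase subunits, 12 HOX genes and 16 translation elongation and release factors (a list without EEF1A2). At an unadjusted p under 0.05 those lists had 4, 5 and 3 genes, and limma-voom called 2, 4 and 3. Mitochondrial ribosomal proteins had 1 higher and 6 lower of 74, complex I 2 and 0 of 34, and spliceosomal small nuclear ribonucleoproteins 2 and 4 of 54. The RNA interference machinery, 19 genes, had 2 lower and 0 higher. Mitochondrial ribosomal protein genes that rose numbered 0 without NC replicate 1, si1 replicate 2, si2 replicate 1 or si2 replicate 2, 2 without NC replicate 2 and 3 without si1 replicate 1. Mitochondrial ribosomal protein genes that fell numbered 3 without NC replicate 1 or NC replicate 2. Complex I genes that rose numbered 1 without NC replicate 1 or NC replicate 2. Complex I genes that fell numbered 2 without si1 replicate 2. Spliceosomal genes that rose numbered 1 without NC replicate 1 or si1 replicate 2. Spliceosomal genes that fell numbered 1 without NC replicate 1 or si1 replicate 2 and 2 without NC replicate 2 or si1 replicate 1. RNA interference genes that fell numbered 1 without NC replicate 1, NC replicate 2, si1 replicate 2, si2 replicate 1 or si2 replicate 2. RNA interference genes that rose numbered 2 without si1 replicate 1. Among non-coding genes with the largest called changes were the microRNA genes MIR4482, MIR6071 and MIR6819 and the small nucleolar RNA genes SNORD6 and SNORD69, whose short length makes 1 read a large FPKM step. MIR4482 had 11.97 and 17.1 FPKM in NC, 1.75 and 0.844 in si1 and 2.71 and 8.504 in si2. RAB39B, a Rab GTPase, stood at 1.895 and 2.63 FPKM in NC, 0.838 and 0.573 in si1 and 1.3004 and 0.755 in si2 (difference -0.93, adjusted p = 0.0174), with NC above both knockdown groups. MIR4482 lost its call with no filter on low values (adjusted p = 0.0503). MIR6071 lost its call under 5 of the alternatives, with adjusted p from 0.0875 to 0.141. MIR6819 lost its call with no filter on low values (adjusted p = 0.0633), under limma-voom (adjusted p = 0.0783) and without si1 replicate 2 (adjusted p = 0.051). RAB39B lost its call with no filter on low values (adjusted p = 0.0895), without NC replicate 2 (adjusted p = 0.105) and without si1 replicate 2 (adjusted p = 0.0815). SNORD69 lost its call under 9 of the alternatives, with adjusted p from 0.0545 to 0.224.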

How the data were processed

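RNA of 6 libraries (2 each of NC, si1 and si2) was measured, and the authors deposited FPKM values per gene in 1 table. Per the submitters' processing notes, the build was hg38, and every gene's start and end equals that of GENCODE release 29. Which aligner, counter and strand setting were used, and how reads shared by similar genes were handled, are not given in the sources used here. The deposited FPKM values of a library are whole multiples of 1 read per gene length, and all (100%) came out whole within 0.001, which gave 14948607 to 17401392 reads per library.

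Genes whose NC and si1 libraries averaged 1 FPKM or more were tested on log2(FPKM + 1), the pseudocount being 1, with limma 3.58.1 in R 4.3.3. All 6 libraries entered 1 fit with a variance trend (3 residual and 4.04 prior degrees of freedom). Tests were two-sided, with Benjamini-Hochberg adjustment over all 12344 genes and calls at an adjusted p under 0.05. The contrasts were si1 minus NC and si1 minus si2. The contrast si2 minus NC of the same fit was used for calls only where genes are said to be called in opposite directions against NC. Elsewhere it is given as a value beside the others, because both knockdown groups share the NC libraries.

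Named genes are the 15 highest and 15 lowest called protein-coding genes, the 12 highest and 12 lowest against si2, up to 6 called members and 3 members named for their role in each list, 5 non-coding genes, KRT6A, RAB39B and the calmodulin genes. Genes of the sequence windows (KIF21B, LRP8, MAPKAPK2, HERPUD1, CARS and AARS) outside that rule were chosen after their values were seen. A few genes that the rules name are not reported here, though counts over lists include them. Members and lists were chosen with earlier results of these data known. Sequences were read with Python 3.11.15 from GENCODE release 29 transcripts and the RefSeq promoter table (GRCh38.p14), the latter matched for 8860 genes by gene ID or symbol. Alternatives covered the pseudocount, the filter on low values, the normalization, the variance trend, limma-voom on the recovered reads, the replicate block, the 4 NC and si1 libraries alone and each library left out. Libraries with the same replicate number did not deviate together (r = -0.056, 0.047 and -0.06), so the numbers were not taken as pairs.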

Additional observations from a re-analysis of the deposited data

Results flagged for a closer look

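Several genes were called in opposite directions against NC in si1 and in si2, with a si1 minus si2 difference of at least 2 in size that passed limma's test in that contrast itself. The difference was -2.80 for CTGF, -2.66 for F2RL1, -2.58 for EREG, -2.51 for IGFBP1 and -2.23 for PTX3, all secreted or surface proteins that were lower than NC in si1 and higher in si2. TRBC2, a T cell receptor constant segment, followed the same order at -2.02, with 61.0 and 68.4 FPKM in NC, 22.4 and 22.99 in si1 and 96.0 and 94.8 in si2. ZBED6CL went the other way at 2.59, with 8.85 and 10.8 FPKM in NC, 36.6 and 34.1 in si1 and 4.71 and 5.34 in si2. SMIM14, a small membrane protein, differed by 2.02, most of it below NC in si2, where it had 3.75 and 3.75 FPKM against 13.5 and 13.5 in NC and a mean of 18.3 in si1 (SD 2.39, n = 2). In all, 376 genes were called in opposite directions against NC and apart from each other, 225 of them lower in si1 and 151 higher. The cause of these differences was not tested.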

How the results depend on the processing

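With no filter on low values, 1496 genes were called between si1 and NC, 599 higher and 897 lower. Leaving out 1 library at a time gave 1039 to 2366 calls, 403 to 985 higher and 636 to 1400 lower, with the lowest counts without NC replicate 1, so the counts depend on both NC libraries. Between si1 and si2 the range was 2924 to 4285, 1473 to 2064 higher and 1451 to 2221 lower, lowest without si2 replicate 1. None of the named genes with a call changed sign under any alternative. The balance of higher and lower genes did shift with the normalization. Without a further normalization 1174 genes were called higher and 1595 lower, and after quantile normalization 1369 and 1488. After median centring the counts were 1438 higher and 1379 lower, so the excess of lower genes did not hold there. Of 443 named genes with a call, 250 kept it in every one of the 16 alternatives that gave them a value. Losses numbered 168 without NC replicate 1, 152 without NC replicate 2 and 128 with no filter. limma-voom on the recovered reads called 3747 genes. With the replicate number as a block, 2333 genes were called against NC and 4320 against si2, and 29 named genes lost their call. Those numbers did not pair the samples. With 2 libraries a group, small changes and genes of few reads, such as the microRNA genes, are measured with little precision.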
